A study of Mus musculus with 2 samples.

Results

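The cells described here are the pigmented intermediate cells of the stria vascularis (SV), which came along in libraries prepared for vascular cells. A barcode was taken as an intermediate cell where Dct, Tyr and Kcnj10 each had at least 1 unique molecular identifier (UMI, 1 counted transcript molecule) and no more than 2 of the endothelial genes Pecam1, Cdh5, Cldn5, Flt1, Egfl7 and Ramp2 had any. The rule found 110 of 834 barcodes in the series. These were 87 of 633 barcodes (13.7%, Clopper-Pearson 95% interval 11.2 to 16.7) in the Tie2-GFP library and 23 of 201 (11.4%, 7.39 to 16.7) in the NG2-DsRed library. No cell barcode occurred in both libraries. No limit on mitochondrial UMIs was set.

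Intermediate cells are melanocytes that lie between the marginal and basal cell layers of the SV and wrap the strial capillaries. Their inward rectifier potassium channel Kcnj10 (Kir4.1) is a main source of the endocochlear potential, the positive voltage of the endolymph on which hair cells depend. They are of neural crest origin, make melanin through Tyr and Dct, and are coupled to basal cells by gap junctions.

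Each library was 1 pool of SV tissue from 10 mice (20 cochleae) aged 1 to 3 months, and the pools differed in the reporter carried by the mice. Tie2-GFP mice carry green fluorescent protein under the promoter of Tek (Tie2), a receptor of endothelial cells. NG2-DsRed mice carry the red fluorescent protein DsRed under the promoter of Cspg4 (NG2), a proteoglycan of pericytes that other cell types can also make. The tissue was dissociated with collagenase IV and papain, and cells were sorted by flow cytometry when required, so the libraries are enriched to a degree that is not recorded for each sample. With 1 library per line, mice are not replicated, no test between classes of cells was made, and the intervals given here cover counting error only.

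The intermediate cells held 1314067 UMIs in the Tie2-GFP library (median 15955 per cell, range 626 to 42476, median 3779 genes) and 244957 UMIs in the NG2-DsRed library (median 10383 per cell, range 1367 to 19585, median 3210 genes). The comparators were the endothelial cells of the same library, with at least 4 of the 6 endothelial genes (379 cells with a median of 7431 UMIs in Tie2-GFP, 60 cells with a median of 9146 UMIs in NG2-DsRed). For NG2-DsRed, the 102 mural cells (pericytes and smooth muscle, at least 4 of 12 markers, median 3017.5 UMIs) served as a further comparator; the Tie2-GFP library held 5 such cells. Intermediate cells were thus the deepest of these classes in both libraries. After each cell was thinned to the same number of UMIs (3506 in Tie2-GFP, 3754 in NG2-DsRed), intermediate cells had a median of 1467 detected genes against 1630.5 in endothelial cells in Tie2-GFP, and 1712 against 1774 in NG2-DsRed. This left out 6 and 41 shallower cells of the 2 classes in Tie2-GFP and 1 and 8 in NG2-DsRed.

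The values of the genes used by the rule are a description only, since the cells were chosen by them. Dct, the dopachrome tautomerase of melanin synthesis, had a median of 440 UMIs per intermediate cell in Tie2-GFP (7 to 1136) and 258 in NG2-DsRed (36 to 654). Tyr (tyrosinase, the first enzyme of the pathway) had medians of 13 and 10 UMIs, and Kcnj10 medians of 25 and 13. Of the Tie2-GFP barcodes with all 3 markers, 69 had none of the 6 endothelial genes, 18 had 1, and no barcode had 2 or more. In NG2-DsRed 19 had none, 3 had 1 and 1 had 2. Outside the limit, 2 NG2-DsRed barcodes had all 3 markers and all 6 endothelial genes; they held 12 Dct UMIs together and no UMI of Mlana or Slc45a2, whereas the single member with 2 endothelial genes held 654 Dct UMIs. At the other edge, 18 Tie2-GFP and 5 NG2-DsRed barcodes had Dct and Kcnj10 but no Tyr UMI, 1 in each library lacked only Kcnj10, and none lacked only Dct. Dct UMIs also occurred in 14.0% of Tie2-GFP and 28.3% of NG2-DsRed endothelial cells, at 17.5 and 96.6 CPM (counts per 1000000 UMIs of the class).

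The upstream sequences of the 2 pigment genes of the rule are shown because both carry the TCATGTG box, a variant of the E-box bound by the melanocyte regulator Mitf. RefSeq (build GRCm38.p6) gave the 250 bases before the start of each gene, read 5' to 3' on the strand of the gene, with TCATGTG or its reverse complement CACATGA in capitals. For Dct the region is chr14:118052247-118052496 (minus strand), with boxes whose first bases lie 232 and 151 bases before the start. For Tyr it is chr7:87493513-87493762 (minus strand), with 1 box that begins 22 bases before the start.
Dct: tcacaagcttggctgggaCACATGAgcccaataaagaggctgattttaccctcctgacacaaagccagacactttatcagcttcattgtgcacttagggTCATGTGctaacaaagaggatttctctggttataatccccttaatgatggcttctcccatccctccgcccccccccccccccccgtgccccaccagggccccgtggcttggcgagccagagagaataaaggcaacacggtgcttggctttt
Tyr: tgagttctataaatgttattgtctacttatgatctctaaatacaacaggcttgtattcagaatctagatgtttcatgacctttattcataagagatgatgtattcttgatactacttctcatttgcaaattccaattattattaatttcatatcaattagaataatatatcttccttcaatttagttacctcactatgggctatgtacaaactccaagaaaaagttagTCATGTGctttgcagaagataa
The letters were searched on both strands in windows from 250 bases before to 50 after the start, and 4.31% of 27025 genes with a RefSeq promoter held them. A match of letters is not a binding site. By the GRCm38 annotation both genes are protein coding; Dct spans chr14:118012790-118052244 and Tyr chr7:87424771-87493512.

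The labels name endothelial cells for the first library and pericytes for the second, and neither description holds for these barcodes. Of 11 further endothelial markers, Tek (the gene behind the reporter) and Kdr had no UMI in intermediate cells of either library, and the list summed to 41.9 CPM in Tie2-GFP and 24.5 CPM in NG2-DsRed intermediate cells, against 7088 and 5524 CPM in endothelial cells. Its most abundant gene in intermediate cells was Eng (35 and 5 UMIs). The 12 mural markers summed to 4.57 and 36.7 CPM, against 28380 CPM in NG2-DsRed mural cells, with 9 and 7 of them at 0. Cspg4, the gene behind the other reporter, did have UMIs in intermediate cells, 71 in Tie2-GFP (54.0 CPM, 42.2 to 68.2) and 33 in NG2-DsRed (135 CPM, 92.7 to 189). It was found in 33 of 87 and 18 of 23 cells, with at most 5 and 4 UMIs in a cell. Endothelial cells had 7.28 CPM of Cspg4 in Tie2-GFP (3.43% of cells) and 107 CPM in NG2-DsRed (82.0 to 137, 38.3% of cells), and NG2-DsRed mural cells had 638 CPM. The NG2-DsRed level in intermediate cells was thus not distinguishable from that in endothelial cells by these intervals. Of those 60 endothelial cells, 46 had UMIs of at least 3 mural markers, and their part in the endothelial level was not tested. Pigment cell markers that the rule did not use were present. Of 11 further intermediate markers, 10 had at least 1 UMI in intermediate cells of both libraries, Pmel with just 1 in each. The list summed to 6952 and 6275 CPM, against 368 and 232 CPM in endothelial cells. In endothelial cells Nrp2 made up most of the sum (1192 of 1263 and 113 of 137 UMIs).

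**Figure D1:**
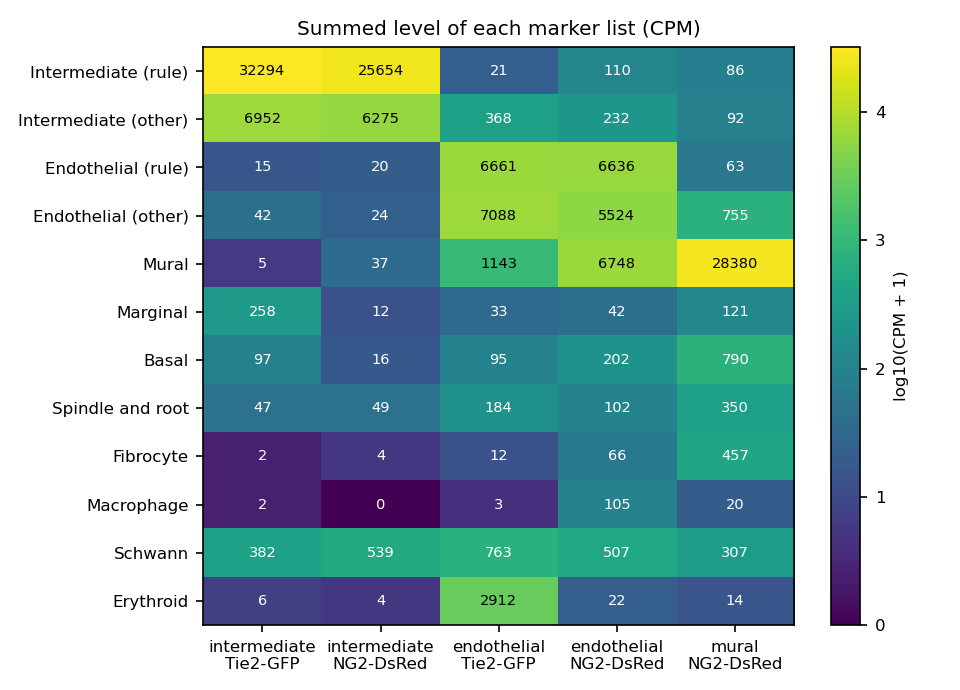
Summed level of each marker list, in CPM, in 5 classes of cells, with colour on the scale log10(CPM + 1). The 2 intermediate columns are high for the pigment lists and near 0 for the mural, fibrocyte and macrophage lists; the 258 CPM of marginal markers in Tie2-GFP comes from a few cells, and NG2-DsRed endothelial cells carry 6748 CPM of mural markers.

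Markers of most other cells of the SV were low, and the Schwann list in both libraries and the marginal list in Tie2-GFP were the highest. The 10 macrophage markers summed to 2 UMIs in Tie2-GFP intermediate cells and 0 in NG2-DsRed, the 8 fibrocyte markers to 2 and 1 UMIs, and the 5 erythroid markers to 8 and 1. The Schwann list held 502 and 132 UMIs (382 and 539 CPM, against 763 and 507 CPM in endothelial cells), of which Pmp22 gave 465 and 130. Of the 6 spindle and root markers, Anxa1 gave 59 of 62 and 11 of 12 UMIs. Marginal cells are the epithelial layer that secretes potassium. In Tie2-GFP their 10 markers summed to 339 UMIs (258 CPM, most abundant Lrp2 with 202, Bsnd at 0), and in NG2-DsRed to 3 UMIs, with 9 of the 10 at 0. Of the Tie2-GFP members, 7 had UMIs of at least 3 marginal markers. These 7 cells held 195 of the 202 Lrp2 UMIs, 76 of 77 Kcne1 UMIs, 588 of 621 Dnase1 UMIs and 152 of 171 Atp1b2 UMIs. They had a median of 29 Dct UMIs, against 473.5 in the other 80 cells, and a median mitochondrial share of 23.9% (12.4 to 43.4) against 9.09%. Another marker list, of basal cells, had at least 3 genes in 2 Tie2-GFP cells, led by Cldn11 (79 UMIs over all members). Gene counts are given with and without these cells. Whether such barcodes hold 1 cell, 2 cells or free RNA was not tested.

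Mitochondrial transcripts took a large share of the UMIs of intermediate cells. The share per cell had a median of 9.31% in Tie2-GFP (3.28 to 70.2, quartiles 6.88 and 12.8) and 5.55% in NG2-DsRed (3.70 to 8.75), against 1.82% and 2.72% in endothelial cells and 2.2004% in NG2-DsRed mural cells. In Tie2-GFP, 14 intermediate cells lay above 20% and 3 above 50%. At the 5% limit that the study's methods set, 8 of 87 Tie2-GFP intermediate cells (9.20%, 4.05 to 17.3) and 7 of 23 in NG2-DsRed (30.4%, 13.2 to 52.9) would remain, whereas 372 of 379 and 59 of 60 endothelial cells would. With the study's limits on genes, UMIs and ribosomal share added, 6 and 7 intermediate cells passed. Most intermediate cells of both libraries were thus above the limit and most endothelial cells below it, although the 2 classes overlapped in range.

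**Figure D2:**
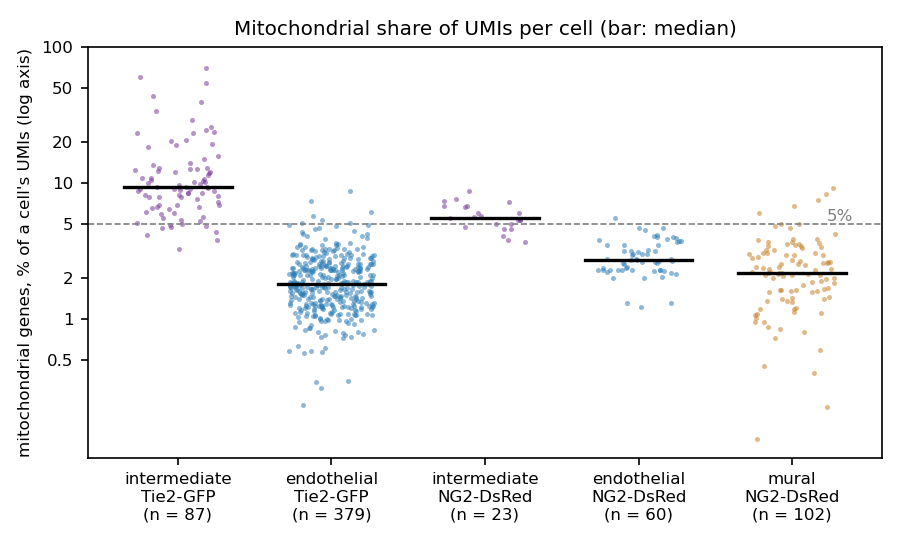
Percent of UMIs from mitochondrial genes for each cell (log axis), with 1 point per cell, a bar at the median and a dashed line at the 5% limit. Intermediate cells centre on 9.31% in Tie2-GFP and 5.55% in NG2-DsRed, above the 1.82% and 2.72% of endothelial cells, and the highest values, to 70.2%, are in Tie2-GFP. The lowest point, at 0.132%, is a mural cell.

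All 13 mitochondrially encoded protein genes were higher in intermediate than endothelial cells of Tie2-GFP, with log2 ratios from 1.26 for mt-Nd6 to 2.88 for mt-Atp8. In NG2-DsRed all 13 ratios were above 0 and smaller, from 0.18 for mt-Nd3, whose interval of -0.12 to 0.47 includes 0, to 1.06 for mt-Cytb. The subunit mt-Co3 of cytochrome c oxidase was at 16565 CPM in Tie2-GFP and 5001 CPM in NG2-DsRed intermediate cells, against 2998 and 2516 CPM. The nuclear retained transcript Malat1 had no UMI in 8 Tie2-GFP intermediate cells (mitochondrial share 8.77 to 70.2%, 1379 to 12115 UMIs) and in 1 of NG2-DsRed, whereas the other 79 and 22 cells had it; 8 of 379 and 0 of 60 endothelial cells lacked it. Whether a high share reflects the cell type or damaged cells was not tested.

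For the comparison across all genes, UMIs were summed over the cells of a class. For the calls and the medians over genes, counts under 3 were set to 3. Where a single gene with 1 to 3 UMIs in a class is given a ratio, the ratio is of the counts as they are and carries its interval, unless the floor is named. A gene was tested with at least 20 UMIs over both classes, and counted as higher or lower where the CPM differed at least 4-fold and a UMI occurred in at least 10% of the cells of the higher class. In Tie2-GFP 873 of 10507 genes tested were higher in intermediate cells (8.31%) and 1279 were lower (12.2%). In NG2-DsRed 400 of 6134 were higher (6.52%) and 686 lower (11.2%). Of 6058 genes tested in both, 293 were higher in both (4.84%) and 516 lower in both (8.52%). The 293 genes were 66.6% of those higher in Tie2-GFP and 74.0% of those higher in NG2-DsRed, and the 516 were 62.5% and 76.4% of those lower. Across the 6058 genes, which are not independent replicates, Pearson's r between the 2 log2 ratios was 0.86. The median log2 ratio of all genes tested was -0.18 in Tie2-GFP and -0.23 in NG2-DsRed, so ratios are best read against these values. Without the members that carried markers of other cell types, 296 genes were higher and 523 lower in both, of which 291 and 516 were among the genes above.

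Neither endothelial comparator was free of other markers. In Tie2-GFP, endothelial cells held 9999 UMIs of erythroid markers (2912 CPM, in 46 of 379 cells), against 6.09 CPM in intermediate cells, and their part in the results was not tested. Of the 60 NG2-DsRed endothelial cells, 46 had UMIs of at least 3 mural markers (35 of 379 in Tie2-GFP). Rgs5 alone, a pericyte gene, was at 3840 CPM over all 60. Against the 14 NG2-DsRed and 344 Tie2-GFP endothelial cells with fewer mural markers, a setting chosen after seeing the data, 207 genes were higher and 218 lower in both, with 181 and 193 of them among the 293 and 516. In NG2-DsRed the counts became 270 higher and 267 lower.

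**Figure D3:**
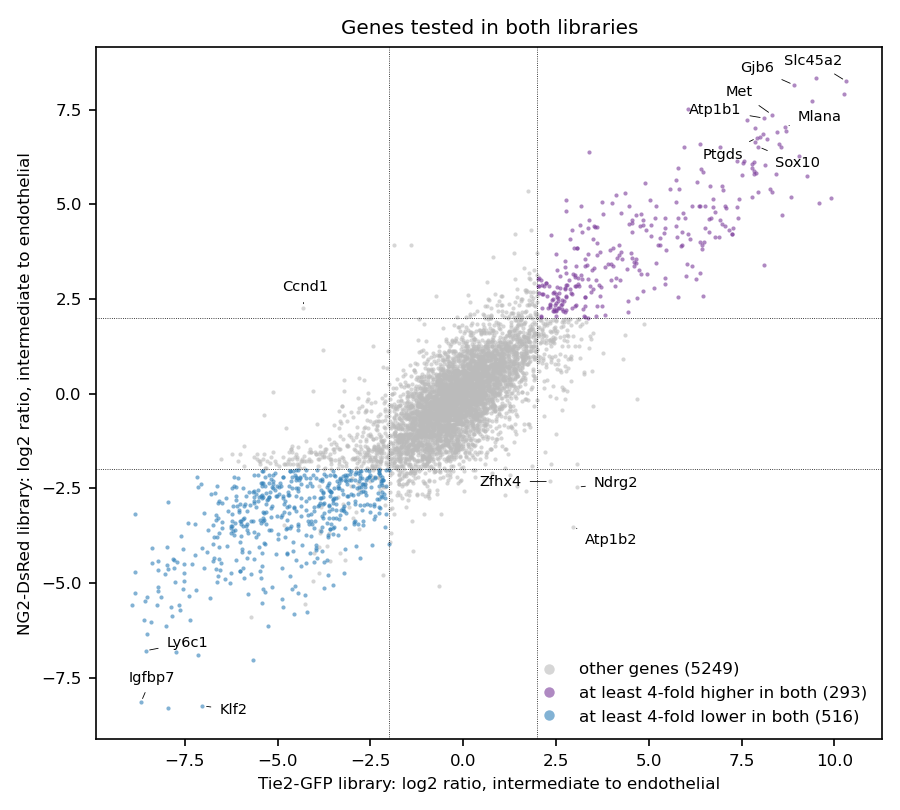
Log2 ratio of intermediate to endothelial cells in Tie2-GFP (horizontal) and NG2-DsRed (vertical) for 6058 genes, with counts under 3 set to 3. The 293 genes at least 4-fold higher in both lie at the upper right, the 516 lower in both at the lower left, and 4 named genes lie in opposite corners.

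The 20 genes that most exceeded endothelial cells in both libraries were Hhatl, Slc45a2, Gjb6, Hpse, Syngr1, Met, Atp1b1, Dkk3, Mlana, Chchd10, Cox8b, Gjb2, Gsta1, Gsta4, Ptgds, F3, Aebp1, S100b, Scrg1 and Sox10. Hhatl, a protein of the membrane-bound acyltransferase family, was at 2120.1 CPM in Tie2-GFP and 1633 CPM in NG2-DsRed intermediate cells, against 2.91 and 5.08 CPM in endothelial cells (log2 ratios 9.51 and 8.33, intervals 8.63 to 10.57 and 6.77 to 10.61). Hpse, the heparanase that cuts heparan sulphate chains, was at 3214 CPM in Tie2-GFP and 4062 CPM in NG2-DsRed intermediate cells, against 2.62 and 16.9 CPM in endothelial cells (log2 ratios 10.26 and 7.91). It was found in 98.9% and 100% of intermediate and 2.11% and 11.7% of endothelial cells. Syngr1, a synaptic vesicle protein, was at 586 and 1074 CPM, and endothelial cells held 2 UMIs of it in each library (log2 ratios 9.97, 8.12 to 13.02, and 8.31, 6.44 to 11.36). Dkk3, a secreted glycoprotein, was at 1046 and 759 CPM; it had 18 UMIs in Tie2-GFP endothelial cells and none in those of NG2-DsRed, which makes it at least 149-fold higher there on a floor of 3 counts over the class. F3, the tissue factor that starts coagulation, was at 599 and 539 CPM against 2.04 and 1.69 CPM. Chchd10 and Cox8b, both mitochondrial proteins encoded in the nucleus, were at 2244 and 2181 CPM in Tie2-GFP and 1751 and 1445 CPM in NG2-DsRed, with endothelial values of at most 13.6 CPM. With the 5% mitochondrial limit, the log2 ratios of all 20 stayed above the 4-fold line in both libraries. These 20 were picked for their large ratios. Of the 293 genes, 161 were still counted as higher in both at that limit, with 8 and 7 intermediate cells. The 10 most abundant nuclear transcripts of Tie2-GFP intermediate cells included Malat1, Fth1, Dct, Ptgds, Gm42418, Atp1b1, Gsta4, Fxyd3 and Ftl1, and Ifi27l2a and Tpt1 entered the 10 of NG2-DsRed.

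Among genes of melanin and the melanosome, 10 of 11 tested were higher in Tie2-GFP and 7 of 8 in NG2-DsRed, and none was lower (7 of 8 tested in both). The median log2 ratio of the list was 5.81 and 4.74. Among all genes tested, 8.31% were higher in Tie2-GFP, 6.52% in NG2-DsRed and 4.84% in both. Those lower were 12.2%, 11.2% and 8.52%. The counts of this and the following lists are to be read against these shares. Slc45a2, a transporter of the melanosome membrane, was at 1493 CPM in Tie2-GFP and 1551 CPM in NG2-DsRed intermediate cells, against 1.16 and 5.08 CPM in endothelial cells (log2 ratios 10.32 and 8.25, intervals 8.97 to 12.20 and 6.70 to 10.54). Over single cells it ranged from 0 to 3048 CPM with a median of 1418 in Tie2-GFP, and from 329.5 to 3079.9 CPM with a median of 1429.7 in NG2-DsRed, where every member had a UMI. Mlana (melan-A, a melanosome biogenesis protein) was at 1069 CPM in Tie2-GFP and 898 CPM in NG2-DsRed intermediate cells, against 2.62 and 6.78 CPM in endothelial cells (log2 ratios 8.67 and 7.05). Gpnmb, a melanosome glycoprotein, was at 2007 CPM in Tie2-GFP and 1959.5 CPM in NG2-DsRed intermediate cells, against 3.79 and 25.4 CPM in endothelial cells (log2 ratios 9.05 and 6.27). Cd63, a tetraspanin of late endosomes and melanosomes, was at 1742 and 1857 CPM with a smaller ratio in NG2-DsRed (5.44 and 2.90). The motor Myo5a, which carries melanosomes along actin, was at 228 and 216 CPM (log2 ratios 5.81 and 5.41, the latter with an interval of 3.79 to 7.73 on 3 endothelial UMIs), and Rab38, a GTPase of melanosome enzyme traffic, had 80 and 21 UMIs against none in endothelial cells (at least 69.7-fold and 16.9-fold higher). Slc24a5, an ion exchanger of the melanosome, was the member below 4-fold in both, at 49.5 and 69.4 CPM against 37.3 and 59.3 CPM, with intervals of the log2 ratio that include 0 (-0.05 to 0.85 and -0.70 to 1.10).

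Parts of the pigment programme were at or near 0. Tyrp1, an enzyme next to Dct in eumelanin synthesis, and Oca2, a melanosome transporter, were listed at 0 in every barcode of both libraries, and Pmel, the amyloid matrix protein of melanosomes, had 1 UMI in the intermediate cells of each library (5 and 1 in all barcodes). The floor of 3 counts over the class corresponds to 2.28 CPM in Tie2-GFP and 12.2 CPM in NG2-DsRed. Whether the counting reached Tyrp1 and Oca2 was not tested. The melanocyte receptors Kit and Mc1r had 0 and 1 UMIs in Tie2-GFP intermediate cells and none in NG2-DsRed.

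Of the regulators of melanocytes and the neural crest, 8 of 12 tested were higher and 1 lower in Tie2-GFP, and 6 of 9 and 1 in NG2-DsRed, the same counts of 6 and 1 holding in both (list medians 5.02 and 3.19). Mitf, the factor that turns on pigment genes, was at 708 CPM in Tie2-GFP and 579.7 CPM in NG2-DsRed intermediate cells, against 3.79 and 8.47 CPM in endothelial cells (log2 ratios 7.55 and 6.10). Sox10, which acts upstream of Mitf, was at 287 CPM in Tie2-GFP and 469 CPM in NG2-DsRed intermediate cells, against 1.16 and 3.39 CPM in endothelial cells, in 83.9% and 87.0% of intermediate cells. Pax3, another activator of Mitf, had 282 and 50 UMIs and none in endothelial cells (at least 246-fold and 40.2-fold higher). Met, the receptor of hepatocyte growth factor, was at 1117 CPM in Tie2-GFP and 841 CPM in NG2-DsRed intermediate cells, against 3.49 and 3.39 CPM in endothelial cells (log2 ratios 8.32 and 7.95, the latter with an interval of 6.08 to 11.01 on 2 endothelial UMIs). Tbx2 and Ednrb, a repressor of the T-box family and the endothelin B receptor, were also higher in both (log2 ratios 6.38 and 3.19 for Tbx2 and 2.60 and 3.10 for Ednrb). The gene lower in both was Lef1, an effector of Wnt signalling, with no UMI in intermediate cells against 1771 and 149 in endothelial cells (at least 226-fold and 20.6-fold lower).

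Genes shared with glia were high as well, 6 of 7 tested in each library, and 6 in both (list medians 6.05 and 5.14). S100b and S100a1, calcium-binding proteins, were at 2027 and 2444 CPM in Tie2-GFP and 1486 and 2066 CPM in NG2-DsRed. Gpm6b was at 256 and 420.5 CPM and the cadherin Cdh19 at 151 and 179.6 CPM, with 1 and 0 Cdh19 UMIs in endothelial cells. Mal, a proteolipid of membrane rafts, went the other way, at 19.8 CPM against 706 CPM in Tie2-GFP and 1 UMI against 251 in NG2-DsRed.

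**Figure D4:**
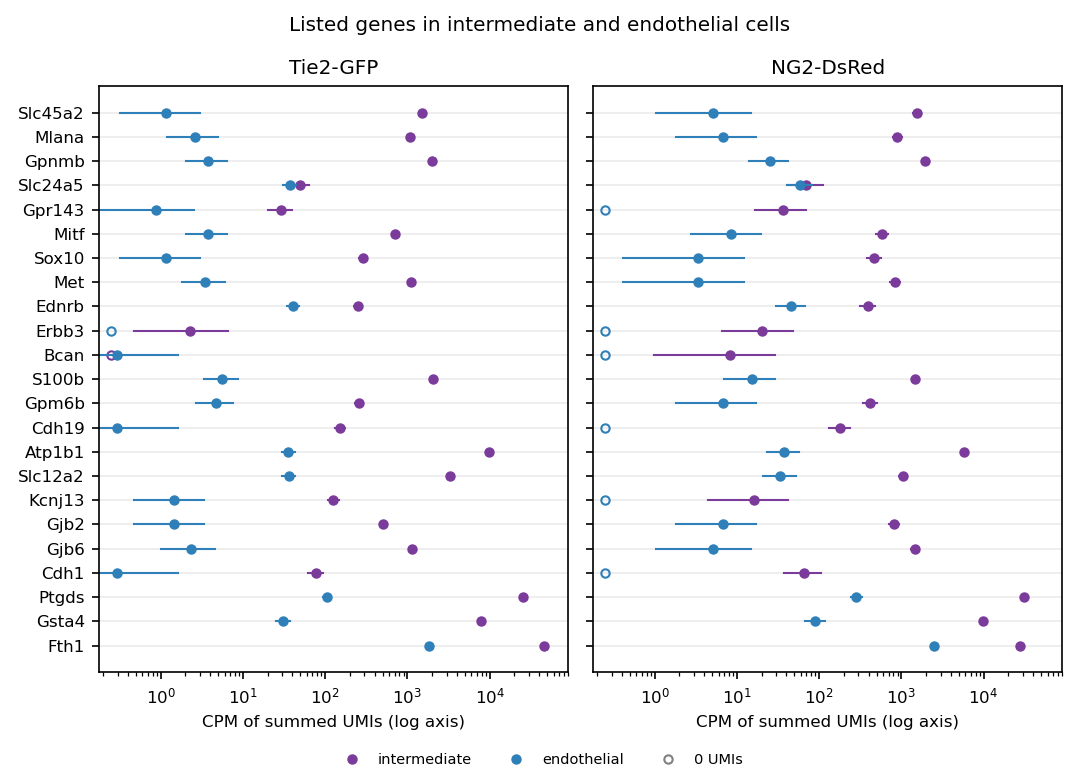
CPM of summed UMIs (log axis) of 23 listed genes in intermediate and endothelial cells of both libraries, with exact Poisson 95% intervals (cut at the left edge) and open circles for 0 UMIs. Pigment, regulator, glial, transport and gap junction genes are mostly higher in intermediate cells in both panels. Slc24a5 overlaps, and Erbb3 and Bcan rest on few UMIs, with Bcan at 0 in Tie2-GFP intermediate cells.

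Ion transport genes gave some of the most abundant transcripts. Of the list, 7 of 11 tested were higher in Tie2-GFP and none lower. In NG2-DsRed 5 of 7 were higher and 2 lower, and 4 were higher in both (list medians 4.78 and 3.81). Atp1b2 counted as higher in Tie2-GFP, where its ratio was -0.13 without members carrying other cell types' markers. It counted as lower in NG2-DsRed, where all 83 endothelial UMIs lay in cells with at least 3 mural markers. Atp1b1, the beta1 subunit of the sodium pump, was at 9910.5 CPM in Tie2-GFP and 5789 CPM in NG2-DsRed intermediate cells, against 35.8 and 37.3 CPM in endothelial cells. It was thus among the 10 most abundant nuclear transcripts of the intermediate cells in each library. The sodium, potassium and chloride cotransporter Slc12a2 was at 3309 CPM (3211 to 3409) in Tie2-GFP and 1053 CPM (929 to 1189.9) in NG2-DsRed intermediate cells, against 36.4 and 33.9 CPM. Fxyd1, a regulator of the sodium pump, was at 434 and 1045 CPM (log2 ratios 5.45 and 3.81). Kcnj13 (Kir7.1), another inward rectifier, had 165 UMIs in 37 of 87 Tie2-GFP cells (126 CPM, at most 18 UMIs in a cell) but 4 UMIs in 4 of 23 NG2-DsRed cells (16.3 CPM, 4.45 to 41.8), too few to be tested. Kcne1, the partner of the marginal cell channel Kcnq1, had 77 Tie2-GFP UMIs, 76 of them in the 7 cells with marginal markers.

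Junction genes separated by type. Over all genes tested in both libraries, 4.84% were higher and 8.52% lower in both. In both libraries 3 of 13 tested were higher and 7 lower (5 and 7 of 16 tested in Tie2-GFP, 3 and 7 of 13 in NG2-DsRed; list medians -1.26 and -2.19). The gap junction genes Gjb2 and Gjb6 (connexin 26 and connexin 30, a pair in which loss causes deafness) were at 509 and 1125 CPM in Tie2-GFP and 816 and 1449 CPM in NG2-DsRed, with endothelial values of at most 6.78 CPM. The third gene higher in both was Cd44, the hyaluronan receptor, at 211 and 461 CPM. Cdh1 (E-cadherin) had 101 and 16 UMIs, against 1 and 0 in endothelial cells, and was tested in Tie2-GFP only. The vascular connexins Gja1, Gja4 and Gjc1 were lower in both, with 2, 0 and 1 UMIs in Tie2-GFP intermediate cells against 1131, 127 and 189 in endothelial cells. Tight junction genes of the barrier were also lower in both, namely Tjp1 (log2 ratios -3.50 and -3.29), Ocln (3 and 0 UMIs) and F11r (13 and 1 UMIs), as was Itga6, a laminin receptor subunit (38 and 0 UMIs).

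Among redox and metal genes, 5 of 28 tested were higher in Tie2-GFP, 6 of 24 in NG2-DsRed and 4 of 24 in both, with none lower (list medians 0.53 and 1.24). The shares higher over all genes tested were 8.31%, 6.52% and 4.84%. Higher in both were the 4 genes Ptgds, Gsta4, Fth1 and Gstp1. Ptgds, the lipocalin-type prostaglandin D synthase, was at 25677 CPM in Tie2-GFP and 30871 CPM in NG2-DsRed intermediate cells, against 106 and 285 CPM in endothelial cells (log2 ratios 7.92 and 6.76). Gsta4, a glutathione transferase for lipid aldehydes, was at 7971 CPM in Tie2-GFP and 9798 CPM in NG2-DsRed intermediate cells, against 31.2 and 89.8 CPM in endothelial cells (log2 ratios 7.999 and 6.77). Fth1, the ferritin heavy chain that stores iron, was the second most abundant nuclear transcript of Tie2-GFP intermediate cells, at 45481 CPM in Tie2-GFP and 27617 CPM in NG2-DsRed intermediate cells, against 1814 and 2509.7 CPM in endothelial cells (log2 ratios 4.65 and 3.46). The glutathione transferase Gstp1 was higher at 102 and 306 CPM (log2 ratios 2.03 and 2.85). Other members below 4-fold in both included the superoxide dismutase Sod1 (177 and 131 CPM against 159 and 130.5 CPM), catalase (Cat) (log2 ratios 0.48 and 0.74), and the peroxidases Gpx4 (log2 ratios 1.54 and 1.94) and Prdx1 (log2 ratios 1.15 and 1.21).

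Of lysosomal genes, 6 of 26 tested in Tie2-GFP and 6 of 22 in NG2-DsRed were higher, 3 of 22 in both (list medians 1.21 and 1.11). For this and the next list, the shares higher over all genes tested were 8.31%, 6.52% and 4.84%. The 3 lysosomal genes higher in both were the proteases Ctsb (log2 ratios 3.69 and 3.74), Ctsd (log2 ratios 3.28 and 2.32) and Lgmn (log2 ratios 3.48 and 3.27). Glycolytic and nuclear respiratory genes had list medians of 1.98 and 1.59, with 21 of 44 tested higher in Tie2-GFP, 8 of 39 in NG2-DsRed and 7 of 39 in both. The 7 included the glycolytic enzymes Aldoa (log2 ratios 2.80 and 2.86), Tpi1 (log2 ratios 3.04 and 2.84) and Pfkl (log2 ratios 3.00 and 2.32) and the lactate dehydrogenase subunit Ldhb (log2 ratios 5.87 and 3.91). The glucose transporter Slc2a1, abundant at blood barriers, was the 1 gene lower in both (log2 ratios -4.55 and -5.07). The CPM without mitochondrial genes in the denominator moved the median of all genes to -0.07 in Tie2-GFP and -0.19 in NG2-DsRed, and 314 genes were then higher in both, the 293 among them.

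Secreted and vascular signals were split, 5 of 23 tested in both being higher and 8 lower (7 and 12 of 28 in Tie2-GFP, 5 and 9 of 24 in NG2-DsRed). List medians were -1.12 and -0.88. Over all genes tested in both, 4.84% were higher and 8.52% lower in both. Higher were Vegfa, the main angiogenic growth factor, at 164 CPM in Tie2-GFP and 261 CPM in NG2-DsRed intermediate cells, against 18.3 and 11.9 CPM in endothelial cells (log2 ratios 3.16 and 4.46), its relative Vegfb (log2 ratios 3.37 and 3.68), the cytokine Ptn (log2 ratios 2.76 and 3.52), the matrix cytokine Spp1 (osteopontin, log2 ratios 4.76 and 4.42), and Fgf1, with 50 and 31 UMIs against 1 and 9. Vegfa was found in 69.0% and 65.2% of intermediate and 11.1% and 10% of endothelial cells. Lower were Igfbp7, a binding protein secreted by vessels (log2 ratios -8.69 and -8.15), Pdgfb, the ligand that recruits pericytes (1 UMI in intermediate cells of each library), and Kitl, the ligand of Kit (log2 ratios -6.54 and -4.46). The basement membrane collagens Col4a1 and Col4a2 and the vasoconstrictor Edn1 had no UMI in intermediate cells of either library.

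Of immediate-early and heat shock genes, those lower were 16 of 18 tested in Tie2-GFP, 10 of 17 in NG2-DsRed and 10 of 17 in both, with none higher (list medians -3.10 and -2.28). The shares lower over all genes tested were 12.2%, 11.2% and 8.52%. Fos was at 753 CPM in Tie2-GFP and 1384 CPM in NG2-DsRed intermediate cells, against 5930.3 and 7534 CPM in endothelial cells (log2 ratios -2.98 and -2.44), Junb at 299.8 CPM in Tie2-GFP and 796 CPM in NG2-DsRed intermediate cells, against 3677 and 6821 CPM in endothelial cells (log2 ratios -3.62 and -3.10), and Atf3 at 14.5 CPM in Tie2-GFP and 32.7 CPM in NG2-DsRed intermediate cells, against 2390.1 and 2076 CPM in endothelial cells (log2 ratios -7.37 and -5.99). Hspa1b, a heat shock protein 70 gene, was lower in Tie2-GFP (-3.21) and in NG2-DsRed had a ratio of 0.36 with an interval that includes 0 (-0.22 to 0.91). These genes respond to dissociation in many tissues, and whether handling has a part in the difference was not tested. Of antigen presentation and macrophage genes, those lower were 4 of 6 tested in Tie2-GFP, 3 of 8 in NG2-DsRed and 3 of 6 in both (list medians -3.94 and -1.997). The 3 were Cd74, H2-Aa and H2-Ab1, all of the class II pathway and none among the 10 macrophage markers used here. They had 2, 0 and 0 UMIs in Tie2-GFP and none in NG2-DsRed intermediate cells. The NG2-DsRed endothelial cells held 62 UMIs of macrophage markers in 3 cells, and their part in the result was not tested.

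**Figure D5:**
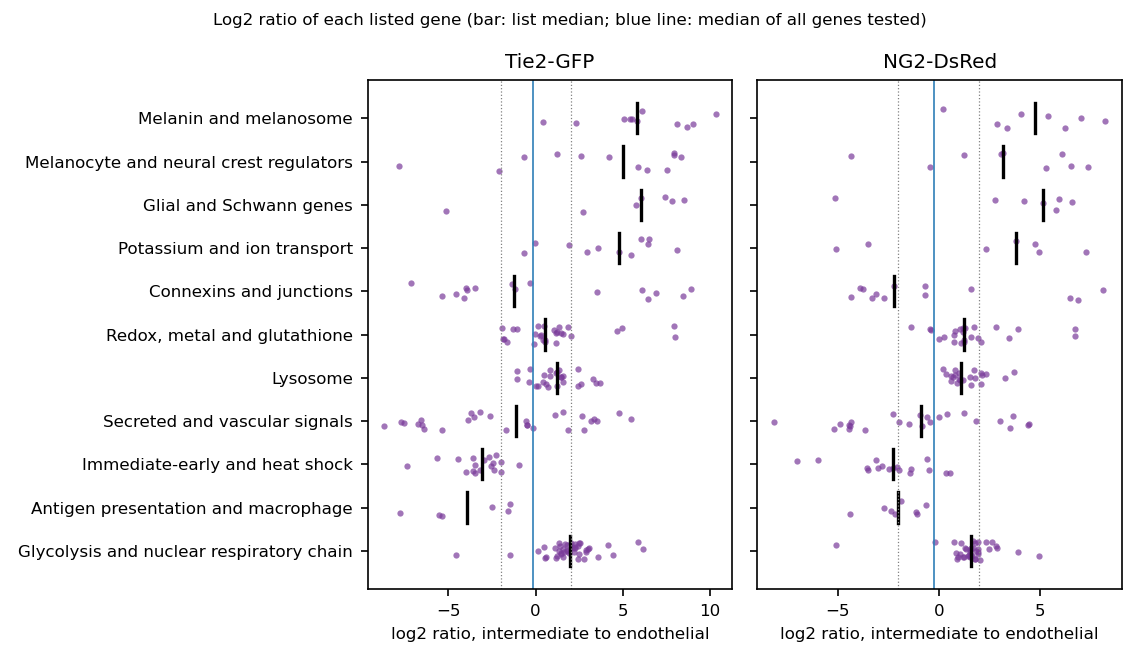
Log2 ratio of intermediate to endothelial cells for each tested gene of the 11 lists, with counts under 3 set to 3, in Tie2-GFP (left) and NG2-DsRed (right). A black bar marks the list median, the blue line the median of all genes tested (-0.18 and -0.23), and dotted lines 4-fold; melanin, regulator, glial and ion transport lists lie to the right of the blue line, immediate-early and antigen presentation lists to the left.

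The 12 genes furthest below endothelial cells in both libraries were Igfbp7, Rgs5, Klf2, Ly6a, Ctla2a, Ly6c1, Pcp4l1, Ly6e, Slco1a4, Atf3, Pltp and Ptprb, most of which are endothelial genes. Klf2, the factor induced by blood flow, was at 16.0 and 16.3 CPM against 2086 and 4949.8 CPM. Slco1a4, an organic anion transporter of the blood-brain barrier, had 4 and 1 UMIs against 3560 and 475 (log2 ratios -8.41, -10.29 to -7.05, and -7.62, -12.93 to -5.14). Rgs5 had 4 and 2 UMIs in intermediate cells; it is a pericyte gene and its comparator values were 757 and 3839.9 CPM. Against endothelial cells with fewer than 3 mural markers its log2 ratios were -3.79 and, with the floor of 3 counts, -5.89. Rgs5 is itself among the 12 mural markers, so that choice of cells lowers its comparator level by construction.

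Against the mural cells of NG2-DsRed, 345 of 5122 genes tested were higher in intermediate cells (6.74%) and 699 were lower (13.6%), around a median log2 ratio of -0.21. Those higher than both mural and endothelial cells numbered 263, and the 10 with the largest smaller ratio were Syt4, Hpse, Slc45a2, Syngr1, Cox8b, Mlana, Met, Adm, Hhatl and Car14. Mural cells held no Slc45a2 UMI (at least 180.0-fold higher in intermediate cells), 5 of Hpse (log2 ratio 8.14, 6.92 to 9.77), and 1 of Met (8.19, 5.70 to 13.50). Adm (adrenomedullin, a vasodilator peptide) was at 845 CPM in NG2-DsRed and 408 CPM in Tie2-GFP intermediate cells, and Car14 (carbonic anhydrase 14) at 931 and 992 CPM. Gjb6 was less far above mural cells (log2 ratio 4.07) than above endothelial cells, with 30 Gjb6 UMIs in 3.92% of the mural cells.

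Some genes of intermediate cells differed between the libraries. Syt4, a synaptotagmin of vesicle release, had 537 UMIs in 17 of 23 NG2-DsRed intermediate cells (2192 CPM, median 18 and at most 65 UMIs in a cell). That library held 549 Syt4 UMIs in all, and no barcode of the Tie2-GFP library had any. Fxyd3, a sodium pump regulator, was at 5943 CPM in Tie2-GFP and 1633 CPM in NG2-DsRed, and the interferon-responsive gene Ifi27l2a at 1349 and 6740.0 CPM. Their log2 ratios of Tie2-GFP to NG2-DsRed were 1.86 (1.72 to 2.01) and -2.32 (-2.42 to -2.22) in intermediate cells, and -1.67 and -0.24 in endothelial cells. Slc12a2 gave 1.65 in intermediate and 0.10 in endothelial cells. For Atp6v0c, a subunit of the vesicular proton pump, the gap was present in both classes, with 1826 and 897 UMIs in Tie2-GFP and 2 and 2 in NG2-DsRed. The libraries were counted with different software versions and gene lists (32285 and 27998 genes, 27040 shared by Ensembl ID), and mouse line, pool and counting cannot be told apart here.

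In all, 4 genes were at least 4-fold higher in one library and at least 4-fold lower in the other, namely Atp1b2, Ndrg2 and Zfhx4 (higher in Tie2-GFP) and Ccnd1 (higher in NG2-DsRed), with ratios on the floor of 3 counts. Atp1b2, the beta2 subunit of the sodium pump, was at 130.1 against 16.9 CPM in Tie2-GFP (log2 ratio 2.95). Without the cells carrying other markers that ratio was -0.13, with none of the 6 endothelial genes allowed it was 1.52, and at the 5% mitochondrial limit Atp1b2 had 0 UMIs in intermediate cells. Zfhx4 likewise left the 4-fold range in Tie2-GFP, from 2.35 to 1.40 without the cells carrying other markers, to 1.28 with none of the 6 endothelial genes and to 1.82 with at least 2 UMIs of each marker. In NG2-DsRed Atp1b2 had 2 UMIs in intermediate and 83 in endothelial cells, and 177 in mural cells. Its ratio of -3.52 there was -1.82 with thinned cells, short of 4-fold. Zfhx4 had 1 UMI in NG2-DsRed intermediate and 36 in endothelial cells. Its ratio of -2.32 there was -0.97 at the 5% mitochondrial limit and -0.63 with thinned cells, both short of 4-fold. With a minimum of 50 UMIs Zfhx4 was not tested in NG2-DsRed. Ndrg2 was at 82.9 against 9.90 CPM in Tie2-GFP and had 3 against 40 UMIs in NG2-DsRed, with 108 in mural cells. Its NG2-DsRed ratio of -2.47 was -1.12 at the 5% mitochondrial limit and -1.08 with thinned cells, both short of 4-fold, and with a minimum of 50 UMIs Ndrg2 was not tested there. Against endothelial cells with fewer than 3 mural markers, none of the 4 was at least 4-fold apart in opposite directions. Ccnd1 kept opposite signs there (-4.42 and 1.55), and Atp1b2, Ndrg2 and Zfhx4 had at most 1 UMI in the 14 NG2-DsRed cells, too few for a call. All 83 Atp1b2 and 36 Zfhx4 UMIs of NG2-DsRed endothelial cells, and all but 1 of the 40 Ndrg2 UMIs, lay in cells with at least 3 mural markers. Their lower NG2-DsRed ratios thus rest on those comparator cells. Ccnd1 (cyclin D1) had 6 UMIs in Tie2-GFP intermediate cells against 313, and 52 against 26 in NG2-DsRed, where it was in 39.1% of intermediate cells.

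By the variance-to-mean ratio of their counts, intermediate cells varied most in a few transcripts. This ratio tends to rise with the mean, so it favours abundant transcripts, and the libraries were thinned to different depths. After thinning to 4108 UMIs (78 of the 87 Tie2-GFP cells), the variance-to-mean ratio had a median of 1.30 over 1066 genes with a mean of at least 0.5, and 164 genes exceeded 2. The 10 highest were Gm42418, Malat1, Fth1, Dnase1, Lrp2, Ptgds, Dct, Clu, Apod and Fos. Gm42418, a gene model that collects ribosomal RNA reads, had a median of 43 and a maximum of 612 thinned UMIs per cell (ratio 102), and in NG2-DsRed a ratio of 3.59. Dct had a median of 120.5 and at most 223 thinned UMIs (ratio 26.0; 19.0 in NG2-DsRed), and Ptgds 90.5 and 310 (27.6; 39.1 in NG2-DsRed). Dnase1, Lrp2, Clu and Apod had a median of 0 and up to 52, 43, 32 and 31 UMIs in a cell. Before thinning, the 7 cells with marginal markers held 588 of 621 Dnase1 and 195 of 202 Lrp2 UMIs. In NG2-DsRed, thinned to 5791 UMIs (20 of 23 cells), Dnase1, Lrp2 and Clu were at 0. Fos had a median of 0 in Tie2-GFP and 3.5 in NG2-DsRed, with up to 53 and 29 UMIs in a cell. Pigment and regulator genes outside these 10 had Tie2-GFP ratios of 2.26 for Slc45a2, 4.49 for Mlana, 2.60 for Mitf, 1.28 for Sox10 and 2.76 for Met. Of these, Sox10 was near the median of 1.30 and the others exceeded 2. Their mean thinned UMIs (5.99, 4.24, 2.86, 1.12 and 5.01) were far below the 120 of Dct. The ratios therefore do not rank their variation against that of Dct.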

How the data were processed

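Single cells of SV pools were profiled by 10x Chromium 3' RNA sequencing. What the authors deposited were matrices of UMI counts, not normalized, for filtered barcodes. The matrix header names Cell Ranger 7.0.0 for Tie2-GFP and software version 3.0.0 for NG2-DsRed, and the submitters' processing notes name mm10 and bcl2fastq 2.20.0.422. Whether intronic reads were counted is not given in the sources used here. The members, gene lists and rules were chosen with earlier results of these data known.

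UMIs were summed over the cells of a class and divided by the UMIs of that class to give CPM, with exact Poisson 95% intervals. The log2 ratio carries an exact conditional binomial interval and shares carry Clopper-Pearson intervals. With 1 library per line no p-value was computed. Genes were matched between libraries by Ensembl ID. Genes named included the 20 higher and 12 lower with the largest smaller ratio of both libraries (rule, mitochondrial, ribosomal and unnamed gene models left out). Also named were 2 to 6 or more members of each list, the 10 most abundant, and genes 4-fold apart in opposite directions. The 10 with the highest variance-to-mean ratio and the 10 furthest above both mural and endothelial cells were named as well. No doublet caller was run; members could have up to 2 endothelial genes, and the 2 NG2-DsRed barcodes with all 3 markers and all 6 endothelial genes stayed in the endothelial class. Alternatives changed the rule, limits on cells, comparator, scaling, depth, minimum UMIs and fold. Scripts were tested on simulated data and used scipy 1.17.1 and numpy 2.4.6 for statistics, pandas 2.3.3 for tables and matplotlib 3.10.9 for plots, under Python 3.11.15. Some genes of the lists are counted in them but not reported here by name.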

Additional observations from a re-analysis of the deposited data

Results flagged for a closer look

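In 4 genes the log2 ratio of intermediate to endothelial cells had opposite signs in the libraries, each at least 4-fold with counts under 3 set to 3. Zfhx4 had 2.35 in Tie2-GFP and -2.32 in NG2-DsRed, the latter on 1 UMI in intermediate cells. Its NG2-DsRed ratio was -0.97 at the 5% mitochondrial limit and -0.63 with thinned cells, both short of 4-fold. Ccnd1 had -4.32 in Tie2-GFP and 2.27 in NG2-DsRed. Atp1b2 had 2.95 in Tie2-GFP and -3.52 in NG2-DsRed. It was -0.13 in Tie2-GFP without members that carry other cell types' markers, and -1.82 in NG2-DsRed with thinned cells. Ndrg2 had 3.07 in Tie2-GFP and -2.47 in NG2-DsRed, the latter being -1.12 at the 5% mitochondrial limit and -1.08 with thinned cells. With 1 library per line, these differences were not tested. Against endothelial cells with fewer than 3 mural markers, none of the 4 was at least 4-fold apart in opposite directions. Ccnd1 kept opposite signs (-4.42 and 1.55), and Zfhx4, Atp1b2 and Ndrg2 had too few UMIs in NG2-DsRed for a call. Nearly all NG2-DsRed endothelial UMIs of these 3 genes lay in cells with at least 3 mural markers.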

How the results depend on the processing

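With the 5% mitochondrial limit, 8 Tie2-GFP and 7 NG2-DsRed intermediate cells remained (median shares 4.53% and 4.58%), and the genes higher numbered 569 in Tie2-GFP, 258 in NG2-DsRed and 172 in both, and those lower 656, 327 and 247. With cells thinned to 1 depth, 509, 190 and 155 genes were higher, and 292 in NG2-DsRed and 222 in both were lower. A minimum of 50 UMIs gave 211 higher and 453 lower in NG2-DsRed and 170 higher in both, and no minimum gave 788 higher in NG2-DsRed and 486 in both. At 2-fold, 2016, 990 and 695 genes were higher and 2389, 1719 and 1152 lower. At 8-fold, 517, 221 and 187 were higher and 816, 299 and 245 lower. Leaving out endothelial cells with at least 3 mural markers, chosen after seeing the data as were the 20% mitochondrial limit and the removal of cells without Malat1, gave 267 lower in NG2-DsRed and 218 in both. That setting, and a minimum of 0 UMIs, also moved the share of higher among called genes in NG2-DsRed from 36.8% to 50.3% and 53.5%. The other 114 values of counts and shares moved less. Without members that carry other cell types' markers, Atp1b2 (-0.13) and Igf1 (-0.29) changed sign in Tie2-GFP. Sign changes were counted only for genes called higher or lower in the main setting, and these were the 2 found. Of all 6974 single-gene values, 758 others moved beyond their counting interval. The cause of these shifts was not tested. No replicate could be left out and no paired analysis was possible because each line has 1 library. The 23 NG2-DsRed cells limit low genes, since the floor of 3 counts is 12.2 CPM there against 2.28 CPM in Tie2-GFP.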

Other observations

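Barcodes with Dct and Kcnj10 but no Tyr UMI lay just outside the rule. The 18 in Tie2-GFP had a median of 4298.5 UMIs, a mitochondrial share of 28.1% and 7.5 Dct UMIs, and held 294 Lrp2 and 816 Dnase1 UMIs, against 12 of Mlana. The 5 in NG2-DsRed had medians of 4854 UMIs, 8.62% and 17 Dct UMIs. Lrp2 is the endocytic receptor megalin, a marginal cell marker in the SV.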
